A study of Cricetulus griseus with 6 samples.

Results

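The genes of cystine uptake and glutathione synthesis were examined in CHO-T cells, Chinese hamster ovary (CHO) cells that stably express *Cdh13*, the gene of T-cadherin, after silencing of *Xbp1*. The 9 genes were chosen by name for their roles in cystine transport and in the synthesis, reduction, conjugation, export and breakdown of glutathione. Earlier results of these data were known when they were chosen. Of these, 8 were matched by symbol among 27873 entries per library, namely *Slc7a11*, *Slc3a2*, *Gclc*, *Gclm*, *Gss*, *Gsr*, *Abcc1* and *Chac1*. The symbol *Gsta4*, a glutathione transferase, matched no entry, and the gene was not analysed here. Cells were transfected with negative control siRNA or with *Xbp1* siRNA, with 3 libraries of each, and harvested 48 h later. The study gives a single sequence for the *Xbp1* siRNA, so loss of *Xbp1* and other effects of this siRNA cannot be told apart. All 6 libraries came from the same line, made by infection with a retrovirus that carries mouse T-cadherin cDNA and by puromycin selection. The methods describe experiments in general as independent biological repeats, and neither they nor the labels say how the 3 libraries of a condition were raised, so p-values measure the spread between these libraries.

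Glutathione is the main small thiol of the cell and serves as the electron donor of peroxidases and as the partner of transferases that detoxify reactive compounds. Its supply is limited by cysteine, much of which cultured cells import as cystine through an exchanger made of the light chain xCT (*Slc7a11*) and the heavy chain CD98 (*Slc3a2*). Glutamate cysteine ligase, with its catalytic subunit (*Gclc*) and modifier subunit (*Gclm*), carries out the first step of synthesis, and glutathione synthetase (*Gss*) the second. Many genes of the pathway are known targets of NRF2, the transcription factor of the antioxidant response, and *Slc7a11*, *Slc3a2* and *Chac1* are also known targets of ATF4, the transcription factor of the amino acid and ER stress response.

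Expression was taken as FPKM, by definition a count of fragments adjusted for transcript length and for the mapped reads of the library. Levels can thus be compared between genes. The study does not describe how the deposited values were scaled between libraries. All values are of transcripts, and levels of protein or glutathione and cystine uptake were not examined here. Differences are log2 fold changes of *Xbp1* siRNA against control siRNA of FPKM + 0.1, a scale on which changes of low genes are understated. They were tested with limma over 14361 entries with a mean of at least 0.1 FPKM. A gene was called when its Benjamini-Hochberg adjusted p was under 0.05 together with a log2 fold change of 1 or more in size, and genes that passed the adjusted p alone are named as such. The silenced gene fell to 7.05% of its control level, with 26.0, 26.2 and 28.4 FPKM with control siRNA and 2.18, 2.11 and 1.39 FPKM with *Xbp1* siRNA. *Cdh13* was expressed in every library, between 84.6 and 85.5 FPKM with control siRNA and between 32.6 and 33.5 FPKM with *Xbp1* siRNA. The line is described in the study as lacking detectable T-cadherin of its own, and the part of this difference in the results was not tested. The FPKM columns summed to between 646651 and 666267 with control siRNA and to between 593487 and 600986 with *Xbp1* siRNA. Depth relative to control replicate 1, read from the steps between low values, lay between 94.2% and 116% in the other 5 libraries. The absolute depth is unknown.

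After *Xbp1* silencing, *Slc7a11*, *Gclm* and *Gss* fell to about 50% of their control levels, *Gclc* fell less, and *Slc3a2* did not fall. Of the 8 genes, 3 were called lower and 0 higher, while 2.50% of all genes tested were called lower and 2.69% higher. By the adjusted p alone (limma), 7 were lower and 1, *Slc3a2*, was higher, and 20.2% of all genes tested were lower and 20.2% higher by the same rule. In 7 of the 8 genes every library with *Xbp1* siRNA lay under every control library, as in 25.8% of all genes tested, and in *Slc3a2* every one lay above, as in 26.1%. The median log2 fold change of the 8 genes was −0.41, and that of all genes tested was 0.01. As the genes were chosen with earlier results of these data known, setting them beside all genes is a description and not a test. The shares also cover many genes of lower level than these 8. In a bulk culture, a lower level in every cell and fewer cells that express a gene cannot be told apart.

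**Figure D1:**
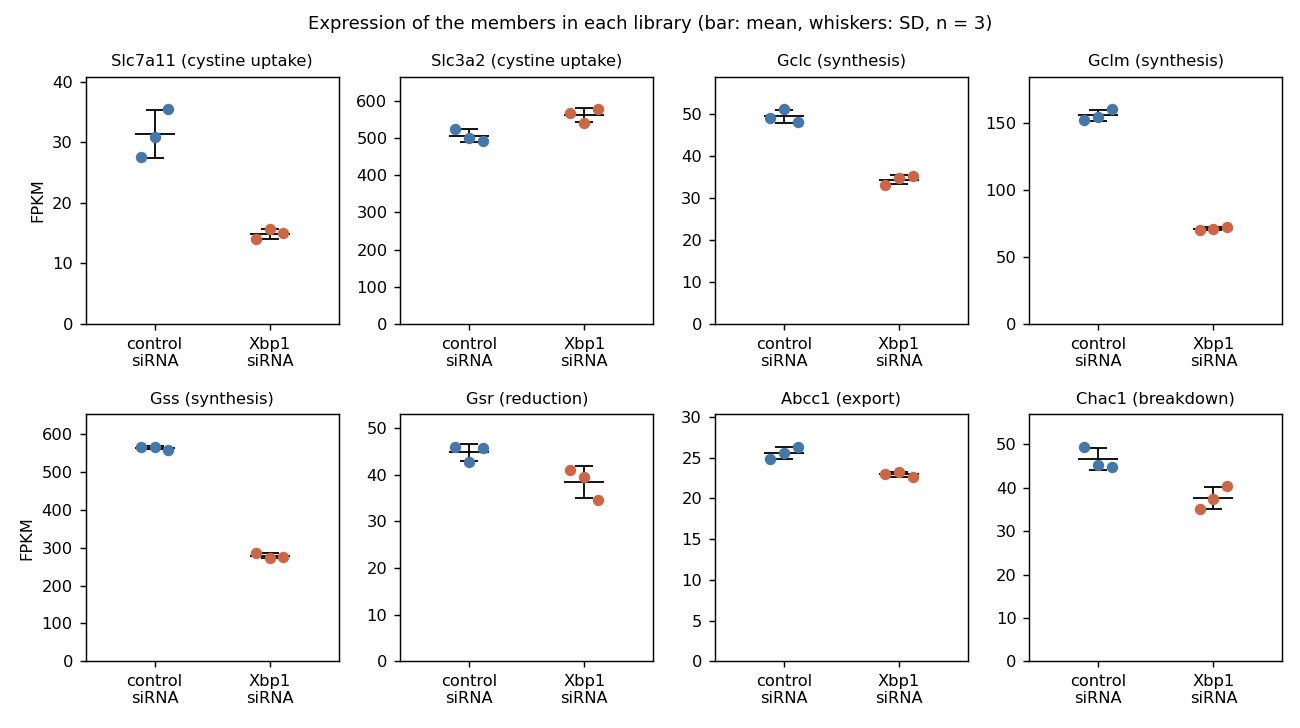
Expression (FPKM, axis from 0) of the 8 genes in each of the 3 libraries with control siRNA (blue) and the 3 with Xbp1 siRNA (orange), with the mean as a bar and the SD as whiskers. The points of the 2 conditions are far apart for Slc7a11, Gclm and Gss and close together for Slc3a2, Gsr and Abcc1.

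The genes of cystine uptake were examined first. The control libraries held 27.6, 30.9 and 35.4 FPKM of *Slc7a11*, and those with *Xbp1* siRNA held 14.0, 15.7 and 15.0 FPKM. The conditions did not overlap, and control replicate 3 was the highest of all. The mean fell from 31.3 ± 3.92 to 14.9 ± 0.840 FPKM (SD, n = 3 each), leaving 47.6% of the control level. This is a change of −1.06 on the log2 scale (standard error, SE, 0.09, limma adjusted p = 1.22e-04). The control libraries varied more in this gene than in any of the other 7, with a coefficient of variation of 12.5%. Without control replicate 3 the log2 fold change was −0.97, under the fold limit, with an adjusted p of 3.52e-04 (limma).

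The transcript of the heavy chain was not lower. *Slc3a2* had 525, 501 and 491 FPKM with control siRNA and 568, 540 and 577 FPKM with *Xbp1* siRNA, with every silenced library above every control. The difference was small against the level, with means of 506 ± 17.5 FPKM (SD, n = 3) and 562 ± 19.4 FPKM (SD, n = 3). The log2 difference of 0.15 (SE 0.04, 95% interval from 0.06 to 0.24) had an adjusted p of 0.0171 (limma). After quantile normalization the log2 difference was 0.42. When each of the 6 libraries was left out in turn, the adjusted p was over 0.05 in 4 cases, namely without control replicates 2 and 3 and without replicates 1 and 3 of the silenced cells, with values from 0.0536 to 0.0631 (limma).

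Within each library, the ratio of *Slc7a11* to *Slc3a2* was 0.0526, 0.0617 and 0.0721 with control siRNA and 0.0247, 0.0291 and 0.0259 with *Xbp1* siRNA. A ratio of this kind is unaffected by a single scaling factor per library. The log2 difference was −1.22 (SE 0.15) with no overlap, and an exact two-sided permutation test gave p = 0.10, the smallest that 3 libraries against 3 allow. As *Slc7a11* was lower and *Slc3a2* higher in every library with *Xbp1* siRNA, this separation followed from the values of the 2 genes. The ratio is therefore not a further result. With 3 ratios tested, the adjusted p was also 0.10 for each in the exact permutation test.

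**Figure D2:**
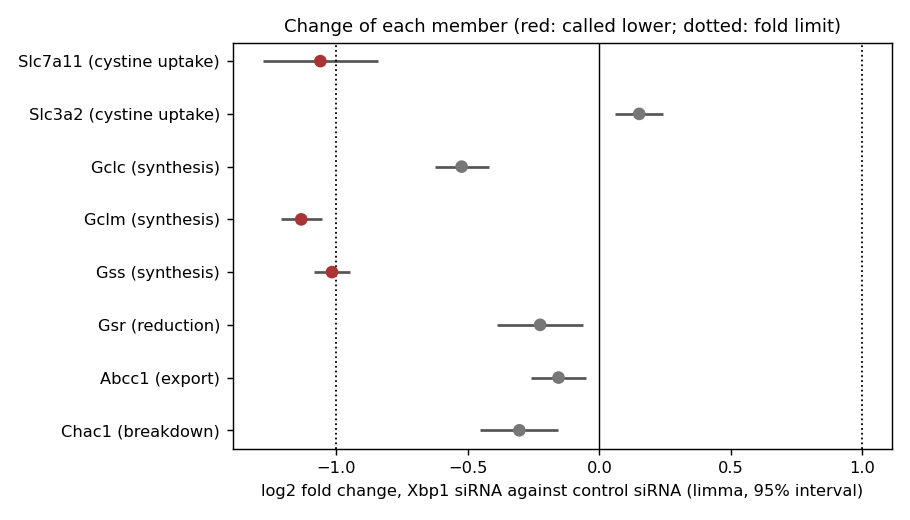
Log2 fold change of each of the 8 genes (x axis, Xbp1 siRNA against control siRNA), with its 95% interval from limma as a line, genes called lower in red and the fold limit dotted. The intervals of Slc7a11 and Gss cross the fold limit, that of Gclm, from −1.21 to −1.06, does not, and none of the 8 includes 0.

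The genes of glutathione synthesis varied little between replicates. *Gclm*, the modifier subunit that raises the efficiency of the ligase, had 152, 154 and 160 FPKM with control siRNA and 69.9, 70.5 and 72.0 FPKM with *Xbp1* siRNA. All silenced libraries lay at under 50% of the lowest control. Its log2 fold change of −1.13 (SE 0.03, limma adjusted p = 1.59e-06) was the largest of the 8 genes. By fold change it ranked 254 among the 359 genes called lower, and its limma p-value ranked 20 over all genes tested.

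*Gss* had the highest level of the 8 genes in control cells, with 566, 565 and 558 FPKM, and fell to 287, 274 and 275 FPKM. The conditions were far apart, and the control libraries had a coefficient of variation of 0.743%. The means were 563 ± 4.19 FPKM (SD, n = 3) and 278 ± 7.06 FPKM (SD, n = 3), or 49.4% of the control. Its log2 fold change of −1.02 (SE 0.03, limma adjusted p = 1.59e-06) stood just past the fold limit, and its limma p-value ranked 17 over all genes tested. After quantile normalization the log2 fold change was −0.79 and the gene was not called.

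The transcript of the catalytic subunit fell less. *Gclc* had 49.0, 51.1 and 48.1 FPKM with control siRNA and 33.1, 34.7 and 35.2 FPKM with *Xbp1* siRNA. The conditions did not overlap, and the level with *Xbp1* siRNA was 69.5% of the control. The log2 fold change of −0.52 (SE 0.04, limma adjusted p = 9.29e-05) did not reach the fold limit. It stayed between −0.54 and −0.39 in every alternative run.

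The balance of the transcripts of the 2 subunits of the ligase was compared within each library. The ratio of *Gclm* to *Gclc* was 3.10, 3.02 and 3.32 in control cells and 2.11, 2.03 and 2.05 in silenced cells. The log2 difference was −0.61 (SE 0.04), with no overlap (exact two-sided permutation test, p = 0.10). By this measure the modifier subunit remained the more abundant transcript in all 6 libraries.

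**Figure D3:**
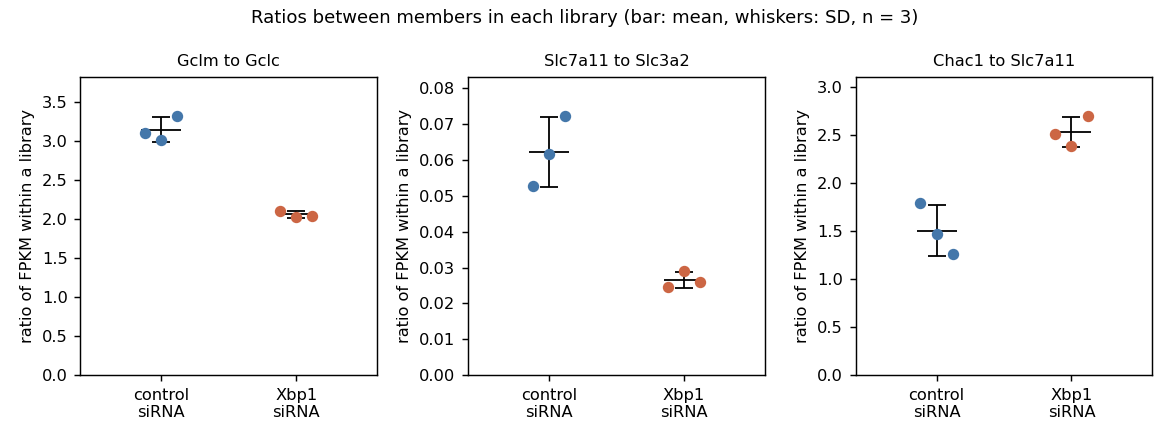
Ratios of FPKM within each library (y axis from 0) for 3 pairs of genes, with control siRNA in blue and Xbp1 siRNA in orange, the mean as a bar and the SD as whiskers. Gclm to Gclc and Slc7a11 to Slc3a2 were lower in every library with Xbp1 siRNA, and Chac1 to Slc7a11 was higher in every one.

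The other 3 genes, *Gsr*, *Abcc1* and *Chac1*, were lower by the adjusted p alone. *Gsr*, the reductase that returns oxidised glutathione to its reduced form, had 46.0, 42.6 and 45.7 FPKM with control siRNA and 41.1, 39.4 and 34.6 FPKM with *Xbp1* siRNA. The conditions did not overlap, but the lowest control and the highest silenced library were close. The log2 difference was −0.23 (SE 0.07, limma adjusted p = 0.0364). Leaving out control replicate 1 or 3, or replicate 2 or 3 of the silenced cells, gave an adjusted p over 0.05, from 0.0601 to 0.0981 (limma).

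*Abcc1*, an ATP-driven pump that exports glutathione and its conjugates, had 24.9, 25.5 and 26.3 FPKM with control siRNA and 22.9, 23.2 and 22.7 FPKM with *Xbp1* siRNA. These levels did not overlap, and the difference was the smallest decrease of the 8 genes. Its log2 fold change was −0.16 (95% interval from −0.26 to −0.05, adjusted p = 0.0284 from limma), and with the replicate number as a block the adjusted p was 0.0511 (limma). Leaving out any 1 library other than control replicate 1 also put it over 0.05, with a highest value of 0.0880 (limma).

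*Chac1*, a cytosolic enzyme that cleaves glutathione and is a known readout of the ATF4 and CHOP branch of the ER stress response, had 49.4, 45.3 and 44.8 FPKM with control siRNA and 35.2, 37.4 and 40.3 FPKM with *Xbp1* siRNA. The level with *Xbp1* siRNA was 81.0% of the control, and no libraries overlapped. This gave a log2 difference of −0.30 (SE 0.06, limma adjusted p = 0.00712). The ratio of *Chac1* to *Slc7a11* was 1.79, 1.46 and 1.26 in control cells and 2.51, 2.38 and 2.69 in silenced cells. These did not overlap, with a log2 difference of 0.76 (SE 0.15, exact two-sided permutation test, p = 0.10).

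The order of the levels shifted. In control cells it was *Gss*, *Slc3a2*, *Gclm*, *Gclc*, *Chac1*, *Gsr*, *Slc7a11* and *Abcc1* from high to low in FPKM, and the libraries of *Gclc* and *Chac1* and those of *Chac1* and *Gsr* overlapped. With *Xbp1* siRNA, *Slc3a2* stood above *Gss*, the means of *Gsr* and *Chac1* stood above that of *Gclc*, and *Slc7a11* stood under *Abcc1*. There the libraries of *Gsr*, *Chac1* and *Gclc* all overlapped with one another. *Gss* and *Slc3a2* were abundant transcripts, with control levels above those of 99.0% of all genes tested for each, and *Abcc1*, the lowest of the 8, still exceeded 69.7% of them.

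**Figure D4:**
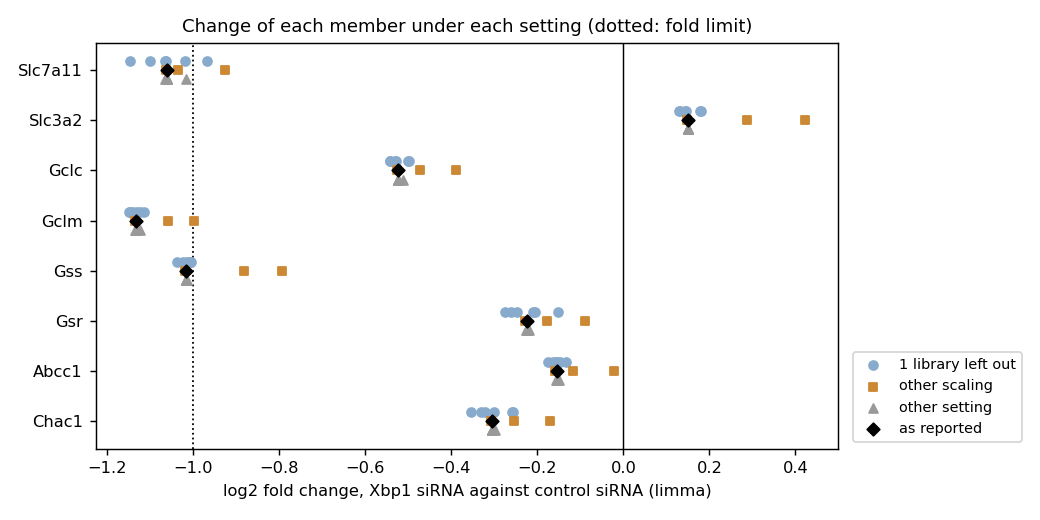
Log2 fold change of each of the 8 genes (x axis, Xbp1 siRNA against control siRNA) as reported (black) and under each alternative, with fits that left out 1 library in blue, other scalings in orange and other settings in grey. No gene changed its direction, and the fits that moved Gss and Slc3a2 most were other scalings.

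These values depend on the scaling of the libraries. Scaling all libraries to equal FPKM sums, an alternative chosen after the data were seen, moved the median log2 fold change of all genes tested by 0.13. The log2 fold changes were then −0.93 for *Slc7a11*, −0.999 for *Gclm*, −0.88 for *Gss*, −0.39 for *Gclc* and 0.29 for *Slc3a2*, and none of the 8 genes was called. Relative to the median of all genes they were −1.06, −1.13, −1.02, −0.52 and 0.15, as with the deposited values. Under that scaling the calls over all genes were 566 higher and 254 lower, against 386 higher and 359 lower with the deposited values. *Gsr* had −0.09 (adjusted p = 0.351, limma) and *Abcc1* had −0.02 (adjusted p = 0.776, limma), while *Chac1* stayed under 0.05 with an adjusted p of 0.0486 (limma).

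Other genes that handle cysteine and glutathione were followed in 7 lists. These lists, like those of NRF2 regulators and of the ATF4 response below, were chosen with earlier results of these data known. Of 68 symbols, 53 were matched on 54 entries, 44 of which were tested. By the adjusted p alone (limma), 11 were higher and 15 lower, and 1 was called higher and 2 lower. Over all genes tested these shares were 20.2% higher and 20.2% lower by the adjusted p alone, and 2.69% and 2.50% called, and counts in the lists below are to be read against them. Their median log2 fold change was 0.01, as for all genes tested. In these lists genes are named by a set rule, and others are named, after their values were seen, where they make up a count of 5 or fewer. Under other settings the adjusted p (limma) of some named genes was over 0.05, reaching 0.192 for *Slc1a4*, 0.118 for *Cndp2*, 0.0865 for *Mat2a*, 0.0716 for *Mfsd12*, 0.0656 for *Gpx1* and 0.0652 for *Slc25a39*.

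The largest change in these lists was an increase in *Ggt1*, the cell surface gamma-glutamyltransferase that starts the breakdown of extracellular glutathione. It had 1.03, 1.59 and 1.00 FPKM with control siRNA and 6.65, 6.78 and 6.71 FPKM with *Xbp1* siRNA. All silenced libraries lay well above all controls, although the control level was low. The increase was 2.41 on the log2 scale (SE 0.18, limma adjusted p = 5.66e-05) and ranged between 1.82, with a pseudocount of 1, and 2.61 in the alternatives run. Of 7 tested entries for other breakdown enzymes, *Ggt1* was called higher, *Ggt7* was higher by the adjusted p alone with a log2 fold change of 0.56, and *Cndp2* and *Lap3* were lower with −0.23 and −0.10. The difference in *Lap3* was not stable, with an adjusted p over 0.05 in every fit that left out 1 library.

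Among other glutathione transferases, 9 of 24 symbols were matched, on 10 entries, and 8 were tested. *Gstp1*, an abundant cytosolic transferase, was called lower, from 836, 820 and 796 FPKM to 421, 396 and 403 FPKM. Its log2 fold change of −1.01 (SE 0.03, limma adjusted p = 2.38e-06) stood at the fold limit and was −0.99 without control replicate 1 and without *Xbp1* siRNA replicate 2. It was −0.76 after quantile normalization and −0.87 with equal FPKM sums, where it was also not called. *Mgst1*, a membrane-bound transferase, was lower by the adjusted p alone with a log2 fold change of −0.58, and *Mgst3* was higher with 0.27. *Gsto1* stood on 2 entries, of which one had a log2 difference of −0.79 (limma adjusted p = 5.87e-04) and the other of −0.04 (limma adjusted p = 0.769), and how reads divide between them is not known.

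Genes of the glutathione peroxidase family moved both ways. *Gpx4*, which reduces lipid peroxides in membranes, had a log2 difference of −0.58 (limma adjusted p = 3.28e-04), from 357 ± 32.7 to 238 ± 6.43 FPKM (SD, n = 3 each). *Gpx8*, an ER-resident member of the family with little activity towards glutathione, had 0.45 and *Gpx1*, the cytosolic one, had 0.25, both higher by the adjusted p alone. A further list held glutaredoxins, glyoxalase pathway genes and *Esd*. Of its 7 tested genes, none was higher and 4 were lower by the adjusted p, against 20.2% of all genes tested. *Glrx5*, a mitochondrial glutaredoxin of iron-sulfur cluster assembly, was called lower with a log2 difference of −1.07 (limma adjusted p = 1.59e-06), from 151, 148 and 148 FPKM to 71.3, 71.9 and 68.7 FPKM. It was not called after quantile normalization (−0.98) or with equal FPKM sums (−0.94). *Esd* had −0.59, *Hagh* −0.47 and *Glrx3* −0.13, and the last of these lost its adjusted p or its sign in 8 of 15 alternatives.

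Other exporters and the mitochondrial importers held no lower gene. Of 7 tested, 4 were higher by the adjusted p, against 20.2% of all genes tested, and none was called. *Abcc3* and *Abcc4*, relatives of *Abcc1* that export organic anions, had log2 fold changes of 0.76 and 0.58, *Abcc10* had 0.52, and *Slc25a39*, which carries glutathione into mitochondria, had 0.14. In *Abcc4* the levels were 15.6 ± 1.06 FPKM (SD, n = 3) and 23.4 ± 0.822 FPKM (SD, n = 3), on a par with *Abcc1* in the silenced cells.

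Of 7 tested genes of cysteine supply, 4 were lower and 1 higher by the adjusted p, against 20.2% of all genes in each direction, and none was called. *Slc1a5*, a glutamine transporter, fell from 254, 239 and 238 FPKM to 162, 154 and 150 FPKM, a log2 difference of −0.65 (limma adjusted p = 2.72e-05). *Mat2a*, which makes S-adenosylmethionine, had −0.27 and *Slc1a4*, a neutral amino acid transporter, had −0.26, while *Mfsd12*, which moves cysteine into lysosomes, had 0.48. *Cth*, the last enzyme of transsulfuration, was listed at 0 in all 6 libraries, and *Cbs*, the first, did not pass the filter. Of the other light chains that pair with *Slc3a2*, *Slc7a5*, the partner that carries large neutral amino acids, was higher from 369 ± 4.84 to 449 ± 7.07 FPKM (SD, n = 3 each), a log2 difference of 0.28 (limma adjusted p = 1.98e-04). *Slc7a6* had −0.46, and *Slc7a7* and *Slc7a10* did not pass the adjusted p.

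**Figure D5:**
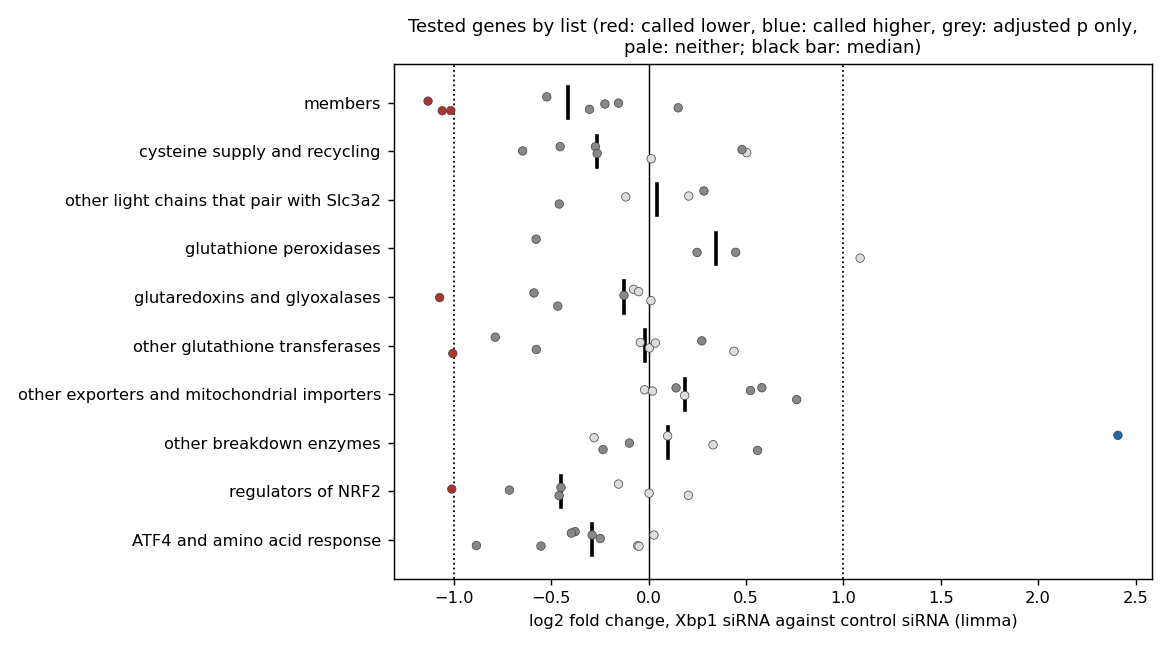
Log2 fold change (x axis, Xbp1 siRNA against control siRNA) of every tested entry of the examined genes and of each list, with genes called lower in red, called higher in blue, past the adjusted p alone in grey and neither in pale, and the median as a black bar. Ggt1 at 2.41 stands apart on the right, and red points lie at or just past the fold limit.

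Among regulators of NRF2, 4 of 7 tested genes were lower by the adjusted p, against 20.2% of all genes tested, and none was higher. *Nfe2l2*, the gene of NRF2 itself, had 156, 164 and 161 FPKM with control siRNA and 119, 116 and 118 FPKM with *Xbp1* siRNA. The conditions were well apart, with a log2 fold change of −0.45 (SE 0.03, limma adjusted p = 4.17e-05). *Keap1*, which directs the degradation of NRF2, had a log2 difference of 0.20 (limma adjusted p = 0.0796), which passed with equal FPKM sums (0.34, limma adjusted p = 0.00858) and without *Xbp1* siRNA replicate 2 (0.28, limma adjusted p = 0.0264). *Bach1*, a repressor at the same DNA elements, had −0.16 (adjusted p = 0.265, limma). *Mafg* and *Mafk*, small partners of NRF2, had −0.46 and −0.72. *Sqstm1*, which binds KEAP1, was called lower with −1.01 (adjusted p = 2.15e-05, limma) and was not called without control replicate 1 or without *Xbp1* siRNA replicate 2 or 3, with values from −0.998 to −0.960. It was also not called after quantile normalization, with equal FPKM sums or with a pseudocount of 1.

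Genes with the pattern most like 3 of the examined genes were sought over the 6 libraries by Pearson's r of log2 values, among 9402 named genes with a mean of at least 1 FPKM. For *Slc7a11* these were *Znf281*, *Fbxo3* and *Arhgap29*, with r from 0.9987 to 0.9995, and for *Gclm* they were *Cpeb1*, *Hdgf* and *Akr1b8*, with r from 0.9997 to 0.9999. For *Chac1* they were *Endog*, *Trnau1ap* and *Mthfsd*, with r of 0.993. These values describe 6 points in 2 groups, and 1097, 1373 and 190 genes reached an r of 0.95 with *Slc7a11*, *Gclm* and *Chac1*.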

How the data were processed

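Total RNA was extracted from the cells and sequenced from stranded mRNA libraries. The authors deposited FPKM values, 1 library per file, by gene symbol. HISAT2 2.1.0 and Cuffdiff 2.2.1 are named in the submitters' processing notes, and the genome build and annotation are not given in the sources used here, so no coordinates are printed. A RefSeq table of the assembly CriGri-PICRH-1.0, used for names only, held 88.0% of the 27311 symbols. No promoter or protein sequences were used here, and a planned motif search was not run.

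FPKM are not counts, so the study's count model was not applied. The test was limma 3.58.1 (R 4.3.3) on log2 values after adding 0.1 FPKM (lmFit, eBayes with trend), over entries with a mean of at least 0.1 FPKM over 6 libraries, with Benjamini-Hochberg adjustment. Entries that share a symbol were kept apart. The fit was also run on simulated data, whose outcome is not reported here and is not used as support for the calls. Ratios were tested by exact permutation in scipy 1.17.1. The genes and lists were chosen with earlier results of these data known. Named genes are the 8 examined, *Xbp1*, *Nfe2l2*, *Keap1*, *Bach1*, *Atf4* and *Ddit3*, the called genes of each list (up to the 4 largest) with its most abundant gene, and the 3 genes most like *Slc7a11*, *Gclm* and *Chac1*. Alternatives were other pseudocounts, filters and scalings, eBayes without trend, no fold limit, the replicate number as a block, and leaving out each library. The values of 1 list gene are not reported here.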

Additional observations from a re-analysis of the deposited data

How the results depend on the processing

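Of 1128 values recomputed for 75 results, 4 reversed, namely *Atf4* with 0.23 after quantile normalization, *Atf4* with 0.0786, *Glrx3* with 0.008 and *Lap3* with 0.0356 under scaling to equal FPKM sums. Of the others, 1008 were counted as the same. Among these, gene values kept their direction and their side of the threshold, counts stayed within 1.5 times, and ratios kept their direction alone. For ratios, the value with the replicate block equals the main one by arithmetic. Of the rest, 74 fell short of a threshold they had passed, 2 passed one they had missed, both in *Keap1*, and 40 counts moved further. None of the 8 genes reversed, and *Slc7a11*, *Gclm*, *Gss*, *Gclc*, *Chac1* and *Xbp1* kept an adjusted p under 0.05 in all 15 alternatives, so calls lost by the first 3 were lost on the fold limit. With equal FPKM sums, the log2 fold changes no longer past their limit were −0.93 for *Slc7a11*, −0.999 for *Gclm*, −0.88 for *Gss*, −0.0903 for *Gsr* and −0.0207 for *Abcc1*, and 0 of the 8 genes and 0 genes of the 7 cysteine and glutathione lists were called lower. With quantile normalization they were −0.79 for *Gss*, −0.18 for *Gsr* and −0.12 for *Abcc1*, and 0 genes of those lists were called lower. With eBayes without trend, *Slc3a2* at 0.15 and *Gsr* at −0.23 had adjusted p of 0.0739 and 0.0861 (limma). Leaving out 1 library gave −1.15 to −0.97 for *Slc7a11*, 0.13 to 0.18 for *Slc3a2*, −0.28 to −0.15 for *Gsr* and −0.18 to −0.13 for *Abcc1*, and 1 to 2 genes of the lists called lower. Without control replicate 1 or *Xbp1* siRNA replicate 2, *Gstp1* was the gene lost. With no fold limit, 1 of the 8 genes was higher and 7 lower, 11 genes of the lists were higher and 15 lower, and 2898 of all genes were higher and 2904 lower. A pseudocount of 1 gave 114 genes higher and 205 lower, and a filter at 1 FPKM gave 242 higher. With the replicate block 363 genes were called higher and 353 lower, and of the 8 genes only *Abcc1*, at −0.16, lost its adjusted p. Replicate numbers were not treated as pairing the libraries. Over all genes, the deviations of same-numbered libraries had correlations of −0.029, −0.027 and −0.012, and no library correlated best with its own number. Depth could be read only relative to other libraries, so no counting interval is given. A motif search was not run.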

Other observations

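*Slc7a11*, *Slc3a2* and *Chac1* are known ATF4 targets, and a list of 10 genes of ATF4 and the amino acid response was followed beside them, of which 9 were matched and tested. By the adjusted p alone (limma), 6 were lower, against 20.2% of all genes tested, none was higher and none was called, with a median log2 fold change of −0.29 against 0.01 for all genes tested. *Atf4* itself had 656, 616 and 637 FPKM with control siRNA and 620, 606 and 610 FPKM with *Xbp1* siRNA, and the conditions overlapped. Its log2 fold change was −0.06 (adjusted p = 0.205, limma), but after quantile normalization it was higher at 0.23 (limma adjusted p = 6.53e-04), and with equal FPKM sums it was 0.08 (limma adjusted p = 0.0582). *Ddit3*, the gene of CHOP, fell from 150, 155 and 166 FPKM to 104, 106 and 110 FPKM, a log2 difference of −0.55 (limma adjusted p = 7.55e-05). The other 5 lower genes, named after their values were seen, were *Ddit4* with −0.89, *Psat1* with −0.40, *Sesn2* with −0.38, *Trib3* with −0.29 and *Asns* with −0.25. With equal FPKM sums *Asns* had −0.11 and no longer passed (limma adjusted p = 0.0508).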
